A study of Mus musculus with 6 samples.

Results

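The genes that write, copy and remove DNA methylation, together with a pair of factors that guard imprints, were examined for their own methylation in 3 types of mouse pluripotent cells. The writers were Dnmt1, Dnmt3a, Dnmt3b, Dnmt3l and Uhrf1, the erasers were Tet1, Tet2 and Tet3, and the imprint guardians were Zfp57 and Trim28. These 10 genes were chosen by name for their function and not by a methylation value. Every CpG from 5 kb upstream of the first annotated start to the end of the gene (mm10) was taken, provided that it had at least 10 reads, summed over the 2 replicates, in each cell type. This gave 944 of the 1106981 CpGs compared in the whole series. Of these, 635 lay in promoters (within 1 kb of an annotated start), 294 in gene bodies outside the promoters and 15 further upstream. The writers lie at chr9:20907209-20959888 (Dnmt1, 95 CpGs), chr12:3806980-3914443 (Dnmt3a, 283), chr2:153649449-153687730 (Dnmt3b, 97), chr10:78042287-78063622 (Dnmt3l, 9) and chr17:56303321-56323486 (Uhrf1, 81). The erasers lie at chr10:62804570-62899118 (Tet1, 71), chr3:133463679-133544390 (Tet2, 89) and chr6:83362373-83456392 (Tet3, 193), and the guardians at chr17:37001163-37010635 (Zfp57, 10) and chr7:13024152-13031035 (Trim28, 16).

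The data are reduced representation bisulfite sequencing (RRBS), which reads cytosine methylation in the CpG-rich fragments released by the enzyme MspI. There were 6 libraries, 2 from each cell type. C-iPSCs were mouse embryonic fibroblasts (OG2-MEFs) reprogrammed with small molecules, a mixture that included the histone deacetylase inhibitor valproic acid and, at a later stage, 5-Aza-2′-deoxycytidine, which inhibits DNA methyltransferases. 4F-iPSCs came from OG2-MEFs reprogrammed with retroviruses carrying Oct4, Sox2, Klf4 and c-Myc, and mESCs were the E14 line of embryonic stem cells. All were male and grew in serum with LIF and a pair of kinase inhibitors (2i), per the labels on feeder cells that were removed before collection, whereas the methods name gelatin without feeders. Both kinds of iPSCs were at passages 5 to 10 and mESCs at passages 20 to 30. The methods derive OG2-MEFs from mice of several named strains and give no strain for the E14 line. For either kind of iPSC against mESCs, cell type, passage and donor line therefore cannot be told apart. The part of strain in the methylation calls was not tested. Nothing states that the replicates were separate cultures, so the tests measure only the spread between these libraries.

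DNMT3A and DNMT3B place methyl groups on unmethylated DNA, DNMT3L has no activity of its own and stimulates both, and DNMT1 copies the pattern after replication, guided by UHRF1, which binds hemimethylated CpGs. TET enzymes oxidize methylcytosine, which leads to its loss. ZFP57 binds a methylated motif at imprinting control regions and recruits TRIM28, a corepressor that brings in further silencing factors, DNA methyltransferases among them. Promoters with many CpGs are usually free of methylation in pluripotent cells, whereas gene bodies usually carry it.

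The libraries held between 53694199 and 96534037 reads on CpGs, with mESC replicate 2 the shallowest. The median depth at the members' CpGs was between 33 reads per library for Zfp57 and 69 for Dnmt1. RRBS reached between 2.49% (Dnmt3l) and 18.0% (Uhrf1) of the reference CpGs in a member's window. Promoter CpGs of the pluripotency genes Nanog (2 CpGs), Pou5f1 (12) and Zfp42 (7), which are methylated in fibroblasts, had mean levels between 0% and 21.4% in the 6 libraries. Both with enough CpGs for limma were called higher in 4F-iPSCs than in mESCs, Pou5f1 by 7.97 ± 2.47 points (SE, adjusted p = 0.0179) and Zfp42 by 6.52 ± 1.91 (adjusted p = 0.00956), and Pou5f1 also relative to C-iPSCs, by 10.1 ± 2.47 (adjusted p = 0.00551). Their part in the results for 4F-iPSCs was not tested. The 5 body CpGs of Pou5f1 (Oct4) were at 17.8% and 34.4% in 4F-iPSCs, and between 6.65% and 9.73% in mESCs and C-iPSCs. Since 4F-iPSCs received Oct4 by retrovirus, its reads may count toward Pou5f1, which was not tested. Dppa3 and Tdgf1 had no promoter CpG with enough reads.

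The stretches that carry the findings are printed here from the GRCm38 sequence, 5′ to 3′ on the strand of the gene, with every CpG in capitals. The first 4 are the runs in which the most CpGs differed strongly between 4F-iPSCs and mESCs (a run of Dnmt1 with as many strong CpGs as that of Dnmt3l is not printed), the next is a run beside the upstream start of Dnmt1, and the stretch of Tet1 lies next to its most downstream start. The start of the Trim28 coding sequence, chosen after its values were seen, shows a CpG-dense stretch nearly without methylation.
Uhrf1, chr17:56318079-56318311, plus strand, coding exons 12 and 13 and the intron between them: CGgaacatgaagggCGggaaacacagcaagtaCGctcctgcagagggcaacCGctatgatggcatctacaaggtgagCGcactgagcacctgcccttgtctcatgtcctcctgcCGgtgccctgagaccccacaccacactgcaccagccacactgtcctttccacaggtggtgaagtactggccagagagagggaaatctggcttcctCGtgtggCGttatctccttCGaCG
Tet3, chr6:83368045-83368134, minus strand, coding part of the last exon: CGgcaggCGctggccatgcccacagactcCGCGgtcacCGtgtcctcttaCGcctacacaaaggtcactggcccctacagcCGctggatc
Dnmt1, chr9:20924107-20924294, minus strand, coding exon 17 and adjoining intron: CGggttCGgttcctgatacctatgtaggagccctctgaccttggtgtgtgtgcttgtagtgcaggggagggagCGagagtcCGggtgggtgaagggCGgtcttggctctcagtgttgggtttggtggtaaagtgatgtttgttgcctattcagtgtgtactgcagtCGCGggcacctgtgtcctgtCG
Dnmt3l, chr10:78057307-78057434, plus strand, coding exon and adjoining intron: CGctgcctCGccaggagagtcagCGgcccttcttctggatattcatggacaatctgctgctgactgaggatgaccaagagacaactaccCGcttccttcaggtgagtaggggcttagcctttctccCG
Dnmt1, chr9:20958779-20958896, minus strand, intron after the upstream start: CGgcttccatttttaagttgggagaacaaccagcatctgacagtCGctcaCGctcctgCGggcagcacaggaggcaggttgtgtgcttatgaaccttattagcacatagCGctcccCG
Tet1, chr10:62879811-62879880, minus strand, coding exon: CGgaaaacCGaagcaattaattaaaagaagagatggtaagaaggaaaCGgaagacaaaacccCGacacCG
Trim28, chr7:13024719-13024829, plus strand, coding part of the first exon: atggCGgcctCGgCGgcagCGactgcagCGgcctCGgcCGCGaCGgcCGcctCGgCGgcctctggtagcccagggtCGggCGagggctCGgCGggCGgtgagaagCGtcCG

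Promoters of the members were nearly unmethylated in all 3 cell types. Of 635 promoter CpGs, 523 (82.4%) were below 10% in every cell type, and the mean promoter level of a gene stayed between 0% and 10.4% in every library. Dnmt3a had the most promoter CpGs with enough reads (226), with levels of 2.66% and 2.07% in mESCs, then 1.79% and 3.00% in C-iPSCs, then 2.33% and 4.04% in 4F-iPSCs. The lowest and highest libraries of the 3 cell types overlapped there. Dnmt3b (82 CpGs) lay between 1.66% and 4.82%, Uhrf1 (44 CpGs) between 2.10% and 5.01%, Tet2 (67 CpGs) between 1.37% and 2.80%, and Tet3 (122 CpGs) between 2.35% and 4.39%. Dnmt3l, the cofactor, had no promoter CpG with enough reads, so its promoter was not analyzed here.

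No promoter of the 9 members tested passed limma with Benjamini-Hochberg adjustment over 13434 promoters in any comparison, nor had any an unadjusted p under 0.05. Over all promoters, 1.54% were called higher in C-iPSCs than in mESCs, 8.68% higher in 4F-iPSCs than in mESCs, and 1.35% in 4F-iPSCs relative to C-iPSCs. The members' differences between 4F-iPSCs and mESCs were between 0.283 and 3.40 percentage points, with a median of 1.43 beside 0.940 over all genes. These directions were not stable, since without 4F-iPSC replicate 2 the difference was -0.895 in Trim28, -0.341 in Tet2 and -0.255 in Dnmt3b, and with the library median removed it was below 0 in Tet2, Tet3, Trim28 and Dnmt3a. The largest belonged to Tet1, which oxidizes methylcytosine, at 5.91% in mESCs and 9.32% in 4F-iPSCs (difference 3.40 ± 1.82 percentage points, SE, adjusted p = 0.375 from limma). This promoter was called under 3 other settings, with a difference of 7.08 points from pooled reads, 17.4 points with GENCODE starts only (this keeps just the 5 CpGs of a coding exon by the most downstream start, not the 27 of the CpG-rich start) and 2.58 points without CpGs in the MspI site CCGG. Zfp57 was called on the scale of log2 ratios, and Dnmt3b was called without 4F-iPSC replicate 1, by 2.40 points.

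What methylation the promoters showed lay largely at MspI sites, where the RRBS fragments end. The 117 promoter CpGs within CCGG had levels of 12.7% and 9.61% in mESCs compared with 9.29% and 15.2% in C-iPSCs and with 11.4% and 20.5% in 4F-iPSCs. The 518 promoter CpGs elsewhere were between 0.637% and 0.982% in the 6 libraries. Of the 112 promoter CpGs that reached 10% in some cell type, 105 (93.8%) lay in CCGG. Promoter CpGs of all genes showed the same division, with 15.1% and 13.0% in CCGG in mESCs and 1.06% and 1.29% elsewhere. The part of the site itself in these levels was not tested.

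CpGs near different starts of one gene differed in their methylation. Dnmt1 has an upstream start at chr9:20959888, of the kind used in oocytes, and a cluster of starts 6.91 to 7.28 kb further on that serves somatic cells. The somatic cluster (37 CpGs) lay between 1.96% and 4.74% in the 6 libraries. Only 1 CpG with enough reads lay within 1 kb of the upstream start, in the intron and at the edge of the window, 993 bases from the start, and its level was 25% and 30.4% in mESCs, 47.1% and 65.5% for C-iPSCs and 60.7% and 63.6% for 4F-iPSCs. It rested on 23 to 34 reads a library, which leaves 95% Wilson intervals of 12% to 44.9% for mESC replicate 1 and 42.4% to 76.4% for 4F-iPSC replicate 1. These intervals cover counting error only.

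Tet1 showed a similar contrast between its starts. At the CpG-rich start at chr10:62887324 (27 CpGs) the levels were between 2.27% and 3.97%. The most downstream start, at chr10:62880014, lies by the coding stretch printed above, whose 5 CpGs were at 28.7% and 20.7% in mESCs, then 19.9% and 29.8% in C-iPSCs, then 39.1% and 45.2% in 4F-iPSCs. Both 4F-iPSC libraries lay above the other 4, and C-iPSCs and mESCs overlapped. In 75% of all gene bodies tested, both 4F-iPSC libraries were likewise on top, within the full order given below for the bodies. Tet3 (78 and 44 CpGs) was below 5% at both of its measured starts in every library. Dnmt3a (210 and 16 CpGs) was below 5% at the first start and between 3.88% and 9.26% at the second, from which the shorter isoform of embryonic stem cells, Dnmt3a2, is transcribed.

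**Figure D1:**
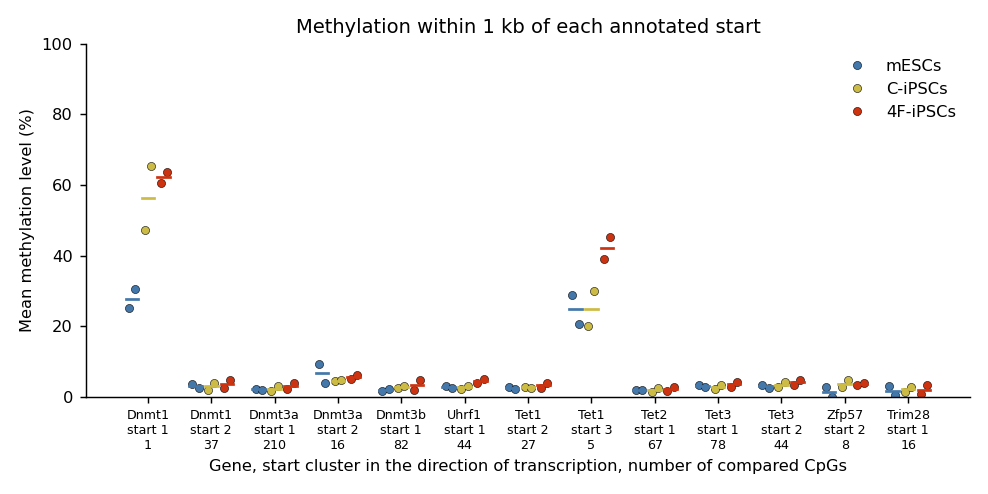
Mean methylation level (%) of the compared CpGs within 1 kb of each annotated start of the member genes that had any, with 1 point for each library and a line for the mean of the 2 replicates; the number under a start is its count of CpGs. The upstream start of Dnmt1 and the third start of Tet1 stand above the others, which lie below 10% in every library.

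Gene bodies of the writers were most methylated in 4F-iPSCs, least in mESCs, and in between in C-iPSCs. Dnmt1, the maintenance methyltransferase (57 CpGs), stood at 51.7% and 53.3% in mESCs compared with 63.0% and 71.6% in C-iPSCs and with 77.6% and 78.3% in 4F-iPSCs. Dnmt3b (12 CpGs), a de novo methyltransferase, reached the highest level of any member, from 58.9% and 69.1% in mESCs through 75.6% and 82.4% in C-iPSCs to 88.3% and 88.8% in 4F-iPSCs. Neither gene had overlapping groups. Dnmt3a (57 CpGs), the other de novo enzyme, was at 45.1% and 50.9% in mESCs, 55.2% and 64.8% for C-iPSCs and 64.9% and 66.6% for 4F-iPSCs. There the higher C-iPSC library nearly met the lower 4F-iPSC library. Between 4F-iPSCs and mESCs the difference was 25.5 ± 6.11 percentage points in Dnmt1 (SE, adjusted p = 5.32e-05 from limma), 24.6 ± 5.50 in Dnmt3b (adjusted p = 1.70e-05) and 17.8 ± 6.13 in Dnmt3a (adjusted p = 0.00441). With promoters of 0.5 kb to each side, the bodies held 25 CpGs in Dnmt3b and 113 in Dnmt3a. The differences were then 14 points in Dnmt3b (adjusted p = 0.00364 from limma) and 9.57 in Dnmt3a (adjusted p = 0.0119 from limma).

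Dnmt3l and Uhrf1 showed the largest differences from mESCs among the members in the reported fit of all libraries. Dnmt3l had only 6 body CpGs, at 39.2% and 52.3% in mESCs, then 66.6% and 74.5% in C-iPSCs, then 78.1% and 82.1% in 4F-iPSCs. This made 34.3 ± 6.12 percentage points between 4F-iPSCs and mESCs (SE, adjusted p = 1.37e-07 from limma) and 24.8 ± 6.12 between C-iPSCs and mESCs (adjusted p = 8.80e-04 from limma). Uhrf1, the partner of DNMT1 (32 CpGs), was at 31.3% and 34.0% in mESCs compared with 43.4% and 57.3% in C-iPSCs and with 62.7% and 65.8% in 4F-iPSCs. The difference from mESCs was 31.6 ± 5.71 points in 4F-iPSCs (adjusted p = 1.89e-07 from limma) and 17.7 ± 5.71 in C-iPSCs (adjusted p = 0.00673 from limma). Without C-iPSC replicate 2 the difference of Uhrf1 for C-iPSCs was 10.8 points, below 11.8 in Dnmt1 and 11.6 in Dnmt3b. Without C-iPSC replicate 1 it was 24.7 points in Uhrf1.

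Among the erasers, Tet3 (68 CpGs) had the most methylated body, at 55.5% and 59.3% in mESCs, 67.4% and 78.7% for C-iPSCs and 82.3% and 84.9% for 4F-iPSCs. Tet2 (22 CpGs) lay lower, at 30.0% and 27.5% in mESCs, then 37.8% and 45.6% in C-iPSCs, then 46.5% and 52.8% in 4F-iPSCs. Tet1 (38 CpGs) had the least methylated body of the 8 members tested, at 17.3% and 15.9% in mESCs compared with 21.8% and 22.3% in C-iPSCs and with 26.2% and 29.8% in 4F-iPSCs. Tet3 differed by 26.2 ± 5.88 points between 4F-iPSCs and mESCs (SE, adjusted p = 1.76e-05 from limma) and Tet2 by 20.9 ± 4.87 (adjusted p = 3.35e-05). Tet1 differed least, by 11.4 ± 2.92 points between 4F-iPSCs and mESCs (SE, adjusted p = 1.43e-04 from limma). Between C-iPSCs and mESCs its difference was 5.43 ± 2.92 points (adjusted p = 0.0830 from limma), which did not pass.

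**Figure D2:**
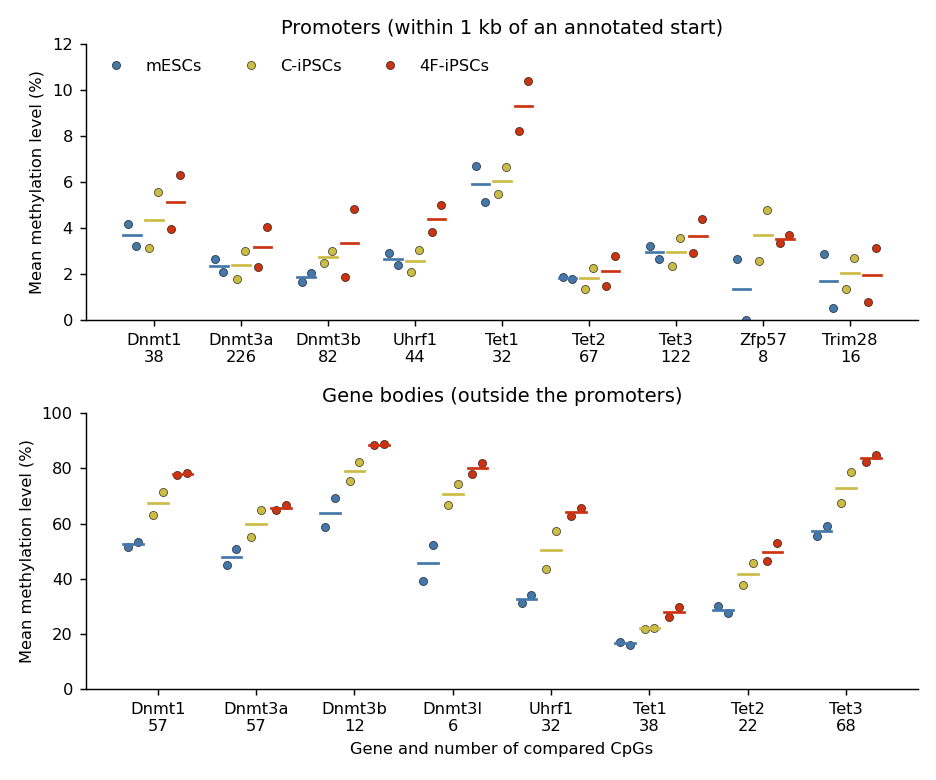
Mean methylation level (%) of promoters (top, axis to 12%) and gene bodies (bottom) of the member genes with at least 5 compared CpGs, with 1 point for each library and a line for the mean of the 2 replicates; the number under a gene is its count of compared CpGs. Promoters stay at or below 10.4%, and the bodies go up from mESCs through C-iPSCs to 4F-iPSCs in all 8 genes.

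In all 8 bodies tested, both mESC libraries lay below both C-iPSC libraries, which lay below both 4F-iPSC libraries. That order without overlap was present in 75% of the 10613 gene bodies tested. The body was called higher in 4F-iPSCs than in mESCs in 8 of 8 members, beside 93.2% of all bodies, and in C-iPSCs than in mESCs in 6 of 8, beside 68.1%. Dnmt3a missed the latter at 12.1 ± 6.13 points (SE, adjusted p = 0.0676 from limma), with Tet1. None of the 8 was called between 4F-iPSCs and C-iPSCs, where 10.5% of all bodies were, and 2 (Uhrf1 and Tet1) had an unadjusted p under 0.05. The largest of these differences, in Uhrf1, was 13.9 ± 5.71 points (adjusted p = 0.0852 from limma). It was 6.93 points without C-iPSC replicate 1 and 20.8 points without C-iPSC replicate 2.

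The members' shares are thus near those of all genes. Their median difference was 25 points between 4F-iPSCs and mESCs beside 24.6 over all bodies, 14.9 beside 14.6 between C-iPSCs and mESCs, and 9.55 beside 9.34 between 4F-iPSCs and C-iPSCs. When each library was centered on its median gene, no member was called higher in 4F-iPSCs than in mESCs, beside 8.03% of all bodies, and 2 of 8 were called lower, beside 34.7%, Dnmt3a by 10.3 points and Tet1 by 16.7 points. Centering took out the difference between the library medians, which need not equal the median difference of 24.6 points, so these calls are not relative to the latter. Dnmt3l stood at the 90.2 percentile of the differences of all bodies between 4F-iPSCs and mESCs, Uhrf1 at 82.4, Dnmt3a at 26.4 and Tet1 at 15.2.

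These calls rest on a spread that limma shared across all genes, since an exact permutation test of 2 libraries against 2 cannot go below p = 0.333. With each gene's own spread, the count for 4F-iPSCs against mESCs stayed at 8, but that for C-iPSCs against mESCs went from 6 to 0, as it did without mESC replicate 1. It went to 3 without C-iPSC replicate 2 and to 1 without either 4F-iPSC replicate, and the count between 4F-iPSCs and C-iPSCs went from 0 to 8 without C-iPSC replicate 2. Where 1 library is left out, its cell type has 1 library, which is assumed to vary like those of the other groups, as also in the call of the Dnmt3b promoter.

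**Figure D3:**
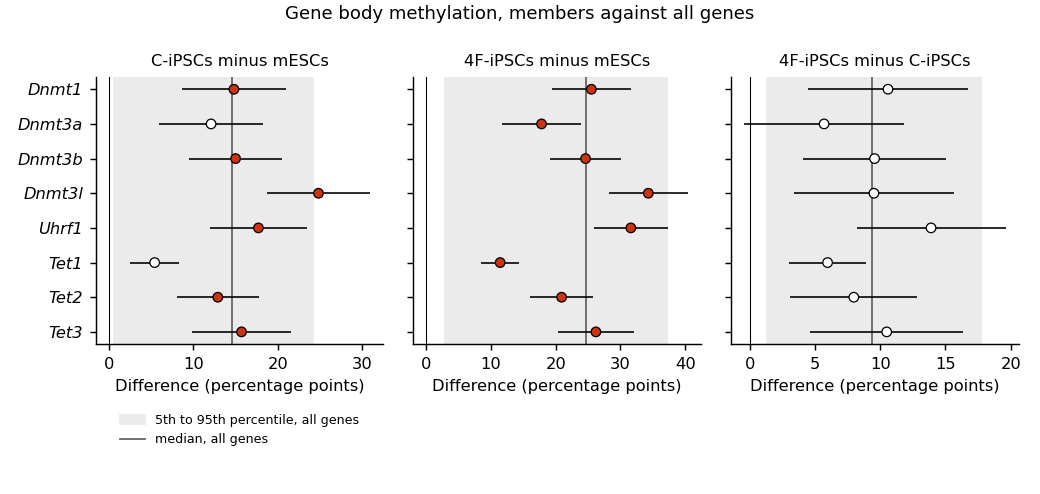
Difference in gene body methylation (percentage points) of the 8 members tested in the 3 comparisons, with bars of 1 SE; filled points have an adjusted p under 0.05 (limma), the gray band holds the 5th to 95th percentile of all 10613 bodies and the vertical line their median. All 8 members are filled between 4F-iPSCs and mESCs, 6 between C-iPSCs and mESCs and none between 4F-iPSCs and C-iPSCs.

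The 2 C-iPSC libraries stood apart in one direction. Replicate 2 was above replicate 1 in all 8 bodies, by 0.571 points in Tet1 and up to 13.9 in Uhrf1, and in 96.6% of all bodies by a median of 8.27 points. On the way from the mESC mean to the 4F-iPSC mean, replicate 1 stood at 34.1% (Uhrf1) to 60.7% (Dnmt3l) and replicate 2 at 50.1% (Tet1) to 94.9% (Dnmt3a). The distance of C-iPSCs from 4F-iPSCs at the members therefore depended on the library.

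Single CpGs were called strong when the summed reads differed by more than 33.3 percentage points with p under 0.05 in Fisher's exact test. Of the members' 944 CpGs, 84 (8.90%) were strongly higher in 4F-iPSCs than in mESCs, beside 14.3% of all compared CpGs, and 75 of them lay in gene bodies (25.5% of the body CpGs, beside 24.5% of the body CpGs of all genes). For C-iPSCs against mESCs there were 9 (0.953%, beside 2.88%), and for 4F-iPSCs against C-iPSCs 2 (0.212%, beside 1.35%), 1 each in introns of Dnmt3a and Tet3. Most of the members' CpGs lay in promoters, which bears on these shares. Of the body CpGs alone, 8 (2.72%) and 2 (0.68%) were called, and the shares over the body CpGs of all genes were not counted for these comparisons. No member CpG was strongly lower in any of the 3 comparisons, where 0.0367%, 0.0331% and 0.0281% of all compared CpGs were. A quasi-binomial model over the libraries with adjusted p kept 79, 7 and 0 of the higher calls. The 9 became 25 without mESC replicate 2 and 48 without C-iPSC replicate 1. The 2 became 8 without C-iPSC replicate 2, 6 without 4F-iPSC replicate 1 and 1 without C-iPSC replicate 1. Only 1 strong CpG lay in a promoter, that of the upstream start of Dnmt1.

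The strong CpGs between 4F-iPSCs and mESCs were spread over 8 members, with 21 in Dnmt1, 19 in Tet3, 17 in Uhrf1, 9 in Dnmt3a, 6 in Dnmt3l, 5 in Tet2, 4 in Dnmt3b and 3 in Tet1. Relative to the CpGs measured in the body, Dnmt3l had the most (5 of 6) and Tet1 the fewest (3 of 38). Runs of at least 3 strong CpGs with neighbors at most 300 bp apart numbered 11 and held 49 of the 84. Neither of the other comparisons had a run. Runs were not counted over all compared CpGs, so whether the members had more or fewer than other genes was not tested.

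The run of Uhrf1 in exons 12 and 13 held 7 strong CpGs of 8 compared, at 38.3% and 42.0% in mESCs, 59.5% and 73.5% for C-iPSCs and 80.5% and 83.0% for 4F-iPSCs. The second CpG printed there went from 22.1% in mESCs through 59.9% to 77.1% in summed reads. The run of Tet3 spans the stop of the coding sequence in the last exon (chr6:83368013-83368134) with 7 strong CpGs of 9, at 33.8% and 43.5% in mESCs, then 45.8% and 76.2% in C-iPSCs, then 66.7% and 79.5% in 4F-iPSCs. Here C-iPSC replicate 2 overlapped 4F-iPSCs. The run of Dnmt1 at exon 17 (6 of 8) was at 43.0% and 41.6% in mESCs compared with 56.0% and 67.3% in C-iPSCs and with 81.0% and 77.7% in 4F-iPSCs.

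In the run of Dnmt3l, all 5 compared CpGs were strong, with levels of 40.1% and 52.8% in mESCs, 67.3% and 76.0% for C-iPSCs and 81.4% and 83.3% for 4F-iPSCs. The run about 1 kb behind the upstream start of Dnmt1 (3 of 4), which includes the CpG described above for that start, was among those with the lowest mESC levels, at 16.8% and 22.7%, against 47.3% and 55.8% in C-iPSCs, with 57.4% and 57.3% in 4F-iPSCs. In neither of these runs did C-iPSCs overlap mESCs or 4F-iPSCs. That mESCs and 4F-iPSCs lie apart follows from the choice of the runs. A run of Tet2 in its coding exon 3 (chr3:133486221-133486297, 3 of 4) was at 21.2% and 23.3% in mESCs, then 34.1% and 55.4% in C-iPSCs, then 59.0% and 62.8% in 4F-iPSCs. Tet3 had a run of 3 CpGs in an intron (chr6:83427327-83427371), where the C-iPSC replicates stood at 50.5% and 84.3% at a median of 14 reads per CpG and library, and one in exon 7 (chr6:83375756-83375776), where they stood at 62.6% and 62.3%. In these, mESCs were between 27.9% and 38.8%, and 4F-iPSCs between 78.6% and 88.0%.

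The lowest mESC levels of any run were upstream of Uhrf1 (chr17:56300186-56300354), where the neighboring gene Arrdc5 starts. Its 5 compared CpGs, 4 of them strong, were at 10.5% and 6.10% in mESCs compared with 29.6% and 36.3% in C-iPSCs and with 57.5% and 50.6% in 4F-iPSCs. Both C-iPSC libraries lay between those of mESCs and of 4F-iPSCs, which the choice of the runs sets apart. The median was only 18.5 reads per CpG and library. This stretch belongs to the window of Uhrf1 only by distance, about 3 kb before its first start.

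**Figure D4:**
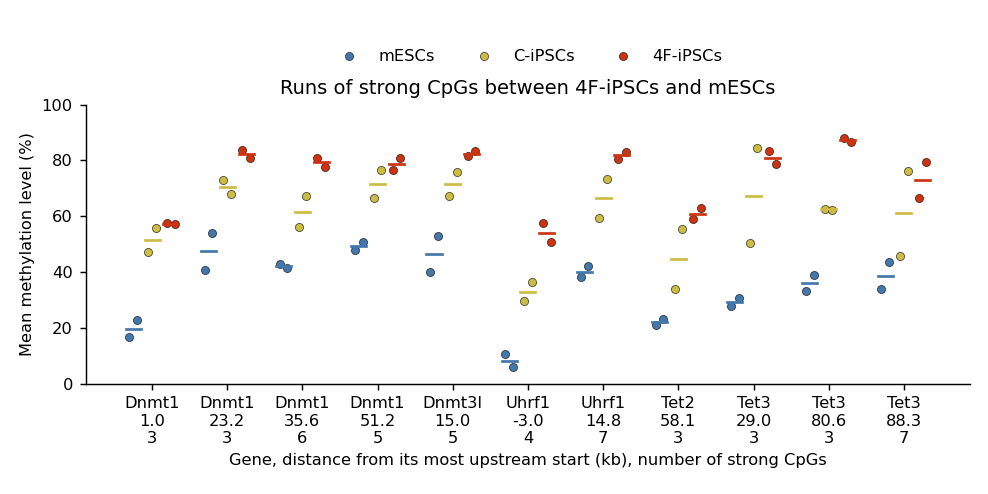
Mean methylation level (%) of the compared CpGs in each of the 11 runs of strong CpGs, with 1 point for each library and a line for the mean of the 2 replicates; below each are the gene, the distance of the run from the most upstream start (kb, negative before the start) and its number of strong CpGs. All mESC libraries lie below all 4F-iPSC libraries, as the choice of the runs requires, and the C-iPSC means lie in between, although C-iPSC replicate 2 is above the lower 4F-iPSC library in 2 runs of Tet3 (76.2% and 84.3%) and 1 of Dnmt1 (76.7%).

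Along the genes, most CpGs around the CpG-rich starts were below 10% in every cell type, 29 of 37 in Dnmt1, 35 of 44 in Uhrf1, and 67 of 78 and 36 of 44 at the starts of Tet3. The highest CpG there reached 22.0%, 41.9% and 42.1% in these genes. The cell types came apart in the bodies. Body CpGs in coding exons (116 CpGs) were at 52.6% and 54.8% in mESCs and 79.8% and 81.4% in 4F-iPSCs, whereas those in introns (153 CpGs) were lower, at 33.9% and 36.1% in mESCs and 53.1% and 55.9% in 4F-iPSCs. The genes contribute unequally to both classes, so this is a description of the CpGs that RRBS reached.

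**Figure D5:**
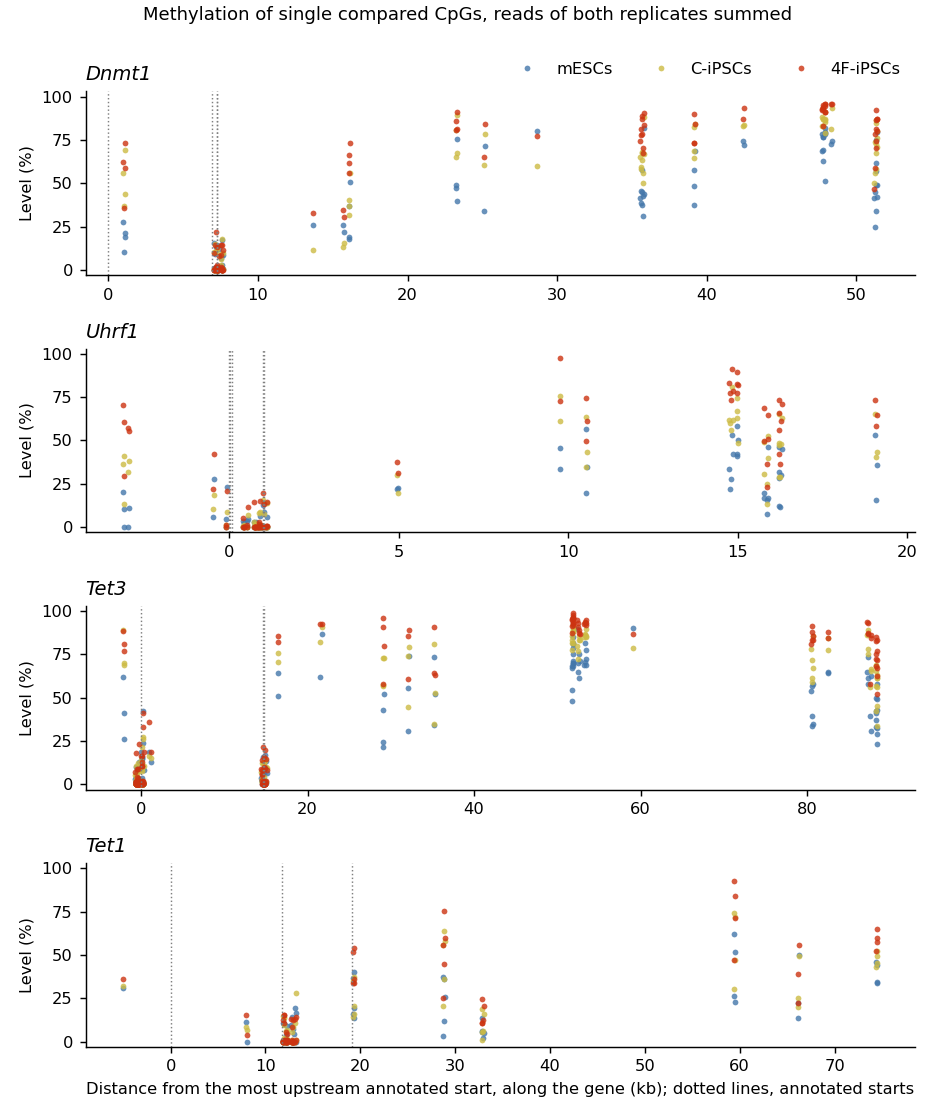
Methylation level (%) of each compared CpG from the summed reads of both replicates in Dnmt1, Uhrf1, Tet3 and Tet1, by distance from the most upstream annotated start along the gene (kb); dotted lines mark annotated starts. Most CpGs at the CpG-rich starts lie below 10% in the 3 cell types, and in the bodies 4F-iPSCs mostly lie on top and mESCs at the bottom.

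Where a CpG stood in mESCs went with how far it differed, in the members as in all CpGs. CpGs were placed by mESC replicate 1, and the difference was taken from mESC replicate 2. The members' 570 CpGs placed below 10% had a median difference of 0 points in both kinds of iPSCs. The 115 placed from 30% to below 60% had median differences of 26.5 points in 4F-iPSCs and 15.3 in C-iPSCs, beside 27.5 and 14.8 over all CpGs of that class. The 80 from 60% upward had 16.9 and 10.8, beside 18.7 and 11.1.

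The imprint guardians were measured almost only at unmethylated sequence. Zfp57 had 8 promoter CpGs, all at its second group of starts, at 2.67% and 0% in mESCs, 2.58% and 4.79% for C-iPSCs and 3.33% and 3.70% for 4F-iPSCs. The 0% of mESC replicate 2 stands for 0 of 165 reads, which allows a share of up to 1.82%. Its difference between C-iPSCs and mESCs was 2.35 ± 1.21 points (SE, adjusted p = 0.845 from limma). In the body of Zfp57 only 2 CpGs with 8 to 43 reads a library were left, too few for a test, with 0% to 35.7% of the reads methylated. Trim28 had 16 CpGs, all in its promoter, at 2.87% and 0.517% in mESCs, then 1.36% and 2.70% in C-iPSCs, then 0.798% and 3.15% in 4F-iPSCs. Of the 13 compared CpGs in the Trim28 stretch printed above, 12 were at or below 2.78% in each cell type in summed reads and the last, in CCGG, was between 10.3% and 15.6%. No body CpG of Trim28 was compared.

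The other genes of the pathway, a list of 32 readers, cofactors, demethylation enzymes and further imprint factors, were described by the same fit. Of 20 bodies tested, 18 were called higher in 4F-iPSCs than in mESCs (93.2% of all bodies), 12 in C-iPSCs than in mESCs (68.1% of all bodies) and 2 in 4F-iPSCs than in C-iPSCs (10.5% of all bodies), and none was called lower. Among the largest differences between 4F-iPSCs and mESCs were 28.8 ± 5.75 points in Zbtb4, a reader of methylated CpGs (SE, adjusted p = 1.87e-06 from limma), and 28.5 ± 5.88 points in Idh2, whose product is the cosubstrate of TET enzymes (adjusted p = 3.53e-06 from limma).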

How the data were processed

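RRBS libraries of 2 C-iPSC, 2 4F-iPSC and 2 mESC samples were used. Per the labels and the methods, the authors aligned read pairs to mm10 with BSMAP version 2.90 and called CpGs with MOABS. They deposited, for each CpG, the counts of all reads and of methylated reads, without normalization, and the methylated fraction, which served as a check and matched the ratio of the counts. Methylated counts were divided by all counts here, and the level of a region is the mean over its CpGs. All CpGs of the chromosomes (1531292) were checked to be CG in GRCm38. Starts came from GENCODE vM21 basic and RefSeq, since the GENCODE gene record of Trim28 runs over a neighbor and the CpG-rich start of Tet1 is in RefSeq only.

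Region levels in percent were fitted with limma version 3.58.1 (mean-variance trend, 6 libraries, no block) over all protein-coding genes with at least 5 compared CpGs. Adjusted p (Benjamini-Hochberg) under 0.05 was called. The prior degrees of freedom came out infinite, so the spread is that of the trend. For single CpGs, reads were summed over replicates and tested by Fisher's exact test (two-sided, unadjusted), as in the study's methods. Scripts were tested on simulated data. All members were named, with at most 3 runs a gene. Of the 32 pathway genes, those past the test in the promoter and the 3 largest body differences were to be named, and some of these are not reported here. The genes and lists were chosen with earlier results of these data known. Intervals and limits for a share of 0 (3 counts) cover counting error only. MEFs, RNA-seq and sequenced bisulfite clones were not used here.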

Additional observations from a re-analysis of the deposited data

How the results depend on the processing

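The tests of regions were repeated under 18 alternatives and those of single CpGs under 13. No promoter of a member was called in the reported fit, and 1 was called higher in 4F-iPSCs than in mESCs from pooled reads (Tet1), on the log2 scale of M values (Zfp57), with GENCODE starts only (Tet1) and without CpGs in CCGG (Tet1). Leaving out 1 library gave 0 to 1. Over the 3 comparisons, 57 of 480 promoter differences changed sign, none of them called. The settings GENCODE starts only, the extent of the GENCODE gene record, without CCGG, each gene's own spread and the centering below were chosen after seeing the data. With each library's median gene removed, 0 bodies were called higher in C-iPSCs than in mESCs, 0 were called higher in 4F-iPSCs than in mESCs and 2 lower. Differences then turned to -1.77 (Dnmt1), -4.53 (Dnmt3a), -1.60 (Dnmt3b), -11.2 (Tet1), -3.67 (Tet2) and -0.922 (Tet3) points for C-iPSCs, and to -2.62 (Dnmt1), -10.3 (Dnmt3a), -3.52 (Dnmt3b), -16.7 (Tet1), -7.18 (Tet2) and -1.90 (Tet3) points for 4F-iPSCs. Centering subtracts from each library its median level over all genes, which need not equal the median of the genes' differences. For 4F-iPSCs against mESCs, Dnmt1 and Tet3 turned below 0 although they lay 0.867 and 1.58 points above that median difference. Dnmt3b lay 0.042 points below it, and Tet2, Dnmt3a and Tet1 lay further below. With each gene's own spread, 0 bodies were called between C-iPSCs and mESCs. Promoters of 0.5 kb to each side gave 5 of 9 bodies called in that comparison. The body of Dnmt3b was then not called, at 8.02 points (adjusted p = 0.121 from limma). Between 4F-iPSCs and C-iPSCs, 1 body was called on M values and 1 without CpGs in CCGG. Leaving out 1 library gave 0 to 8 bodies for C-iPSCs against mESCs (6 reported), 7 to 8 for 4F-iPSCs against mESCs (8) and 0 to 8 for 4F-iPSCs against C-iPSCs (0). The causes of the other changes were not tested.

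Strong CpGs followed the threshold. Above 50 percentage points there were 0, 14 and 0 higher in C-iPSCs than in mESCs, in 4F-iPSCs than in mESCs, and in 4F-iPSCs than in C-iPSCs, and above 25 points 53, 151 and 11. For 4F-iPSCs against C-iPSCs there were 0 with the quasi-binomial model and 1 with at least 10 reads in every library. Without 1 library the counts were 8 to 48, 60 to 100 and 1 to 8, and 0 to 2 were lower in 4F-iPSCs than in C-iPSCs. The 48 and the 2 came without C-iPSC replicate 1, the 8 without C-iPSC replicate 2.

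Samples with the same replicate number did not deviate together in every pair of cell types (correlations 0.455, -0.274 and -0.137 over 24047 regions), so the numbers were not taken to pair the samples. With the replicate number as a block, 8 bodies were called between C-iPSCs and mESCs and 2 between 4F-iPSCs and C-iPSCs, Tet1 and Uhrf1. Depth limits the upstream start of Dnmt1, the body of Zfp57, the intron run of Tet3 and the stretch by Arrdc5.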

Other observations

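Setdb1, a histone methyltransferase that TRIM28 recruits, had only 4 body CpGs with enough reads, too few for the test, and was singled out after its values were seen. They were at 13.5% and 13.4% in mESCs, 31.6% and 54.4% for C-iPSCs and 62.0% and 77.0% for 4F-iPSCs. Its promoter (10 CpGs) lay between 2.43% and 5.69% in the 6 libraries.

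Few of the members' CpGs lay in repeats. The 72 CpGs in soft-masked sequence (7.63% of 944) had mean levels of 18.1% and 19.2% in mESCs, then 23.1% and 29.0% in C-iPSCs, then 28.7% and 31.2% in 4F-iPSCs.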
